A study of Homo sapiens with 12 samples.

Results

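The response to selpercatinib, which blocks the kinase of the receptor RET, was compared gene by gene between the lung cancer line LC-2/ad and the thyroid cancer line TPC-1. Of the 37247 genes in the tables, 11996 had a mean of at least 1 TPM (transcript abundance scaled to a fixed total per library) in each line and were compared. FBXL9P (1.001 TPM in TPC-1) and GABRE (1.002 TPM in TPC-1) lay just inside that limit, and ZEB2 (0.9997 TPM in LC-2/ad) and EGLN3 (0.9981 TPM in TPC-1) just outside it. Each line is known for a fusion of the RET kinase domain to CCDC6, and the labels name no other agent or genetic change. The 4 groups were untreated parent cells and cells kept for 48 h in 100 nM selpercatinib, in each line, with 3 libraries per group. Whether the libraries came from separate cultures, and whether parent cells received the drug's solvent, is not given in the sources used here, so p-values measure only the spread between these libraries. The culture medium also differed, since only that of LC-2/ad had F-12 added to the RPMI-1640 that TPC-1 grew in, and each line is 1 model of its tumour type.

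A change is the treated minus the parent mean of log2(TPM + 1), which understates the change of low genes. The difference of response is the change in TPC-1 minus the change in LC-2/ad, so a positive value means a higher rise or a smaller fall in TPC-1. A gene was called at a Benjamini-Hochberg adjusted p under 0.05 in limma. Opposite changes were called in each line with contrary signs and had a called difference, and shared changes were called in each line with the same sign. In such bulk libraries, fewer cells of a kind and less RNA per cell cannot be told apart.

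As background, RET fusions signal without ligand through the RAS, RAF, MEK and ERK kinases and through PI3K and AKT. Active ERK drives transcription of its own inhibitors, the DUSP phosphatases and the Sprouty and SPRED proteins, and of the ETS factors ETV1, ETV4 and ETV5, so these transcripts are widely read as an output of the pathway. In epithelial tumour lines ERK output also feeds cell cycle entry, while PI3K and AKT hold FOXO factors out of the nucleus.

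In LC-2/ad, the lung factor NKX2-1 was at 110 ± 4.32 TPM (SD, n = 3) in parent cells and EPCAM at 379 ± 17.6 TPM, whereas the surfactant gene SFTPC was at 0 in all LC-2/ad libraries and SFTPB below 1 TPM. TPC-1 parent cells had the thyroid factors PAX8 (190 ± 38.3 TPM, against 14.8 in LC-2/ad) and FOXE1 (9.11 ± 0.779 TPM, against 11.6 in LC-2/ad, so that FOXE1 does not mark the thyroid line here), but NKX2-1 was at 0 and the thyroid hormone genes TSHR and SLC5A5 were near 0. EPCAM was at 4.33 ± 0.899 TPM in TPC-1 and CDH1 at 0.434 ± 0.327 TPM, while KRT8 and KRT18 were abundant in every library of the series. The summed blood cell markers did not exceed 1.02 TPM in any library. The share of TPM from mitochondrial transcripts went from 9.77% ± 0.0507 to 14.6% ± 0.49 with treatment of LC-2/ad, and from 6.97% ± 0.575 to 6.33% ± 0.493 with that of TPC-1. Their part in the differences was tested only by removing these genes, with the results given below.

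The lines responded on different scales. Selpercatinib changed 6856 of the 11996 genes in LC-2/ad (57.2%), with 3545 rises (29.6%) and 3311 falls (27.6%), and 552 genes in TPC-1 (4.6%), of which 424 rose (3.53%) and 128 fell (1.07%). The median size of a change, over all compared genes, was 0.29 on the log2 scale in LC-2/ad cells and 0.122 in TPC-1, with a median SE of 0.08 and 0.11. The difference of response passed the test for 4393 genes (36.6%), with 2660 higher in TPC-1 (22.2%) and 1733 lower (14.4%). That split depends on scaling, since median-of-ratios scaling gave 2229 higher and 2218 lower, and removing the mitochondrial genes gave 2066 higher and 2302 lower. Of the 4393 genes, 3779 (86%) changed in LC-2/ad alone and 122 (2.78%) in TPC-1 alone. A further 122 changed in the same direction by different amounts, 87 (1.98%) changed in opposite directions and 283 (6.44%) were called in neither line alone.

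**Figure D1:**
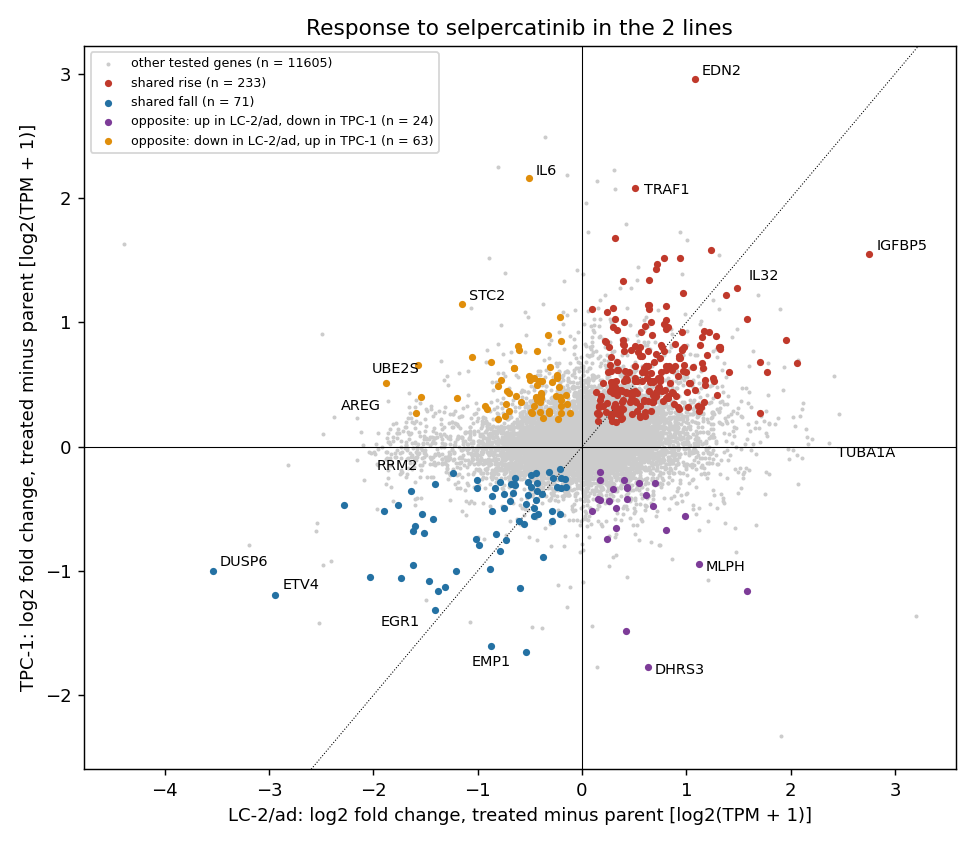
Change in LC-2/ad (x axis) against change in TPC-1 (y axis) on the log2(TPM + 1) scale, with 1 point per compared gene (n = 11996). Red and blue points mark the 233 shared rises and 71 shared falls, purple and orange points the 24 and 63 opposite changes, and the dotted line marks equal change. The grey points spread more widely along the x axis than along the y axis.

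Genes that responded in TPC-1 more often moved the same way in LC-2/ad than the opposite way. Of the 424 TPC-1 rises, 233 (55%) also rose in LC-2/ad, where 29.6% of all compared genes rose, 63 (14.9%) fell and 128 (30.2%) were not called. Of the 128 TPC-1 falls, 71 (55.5%) also fell in LC-2/ad, where 27.6% of all compared genes fell, 24 (18.8%) rose and 33 (25.8%) were not called. Seen from LC-2/ad, 6.57% of its rises also rose in TPC-1 and 2.14% of its falls also fell. Over all 11996 genes the changes in the 2 lines had a Pearson correlation of 0.2 and a Spearman correlation of 0.22, a description across genes that share libraries and are not independent. Large changes in LC-2/ad had little counterpart. The 369 rises of at least 1 on the log2 scale had a median change of 0.17 in TPC-1 and the 415 falls of at least 1 had a median of -0.03. For the 16 TPC-1 falls of at least 1 the median change in LC-2/ad was -1.04, and for the 44 TPC-1 rises of at least 1 it was 0.31.

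**Figure D2:**
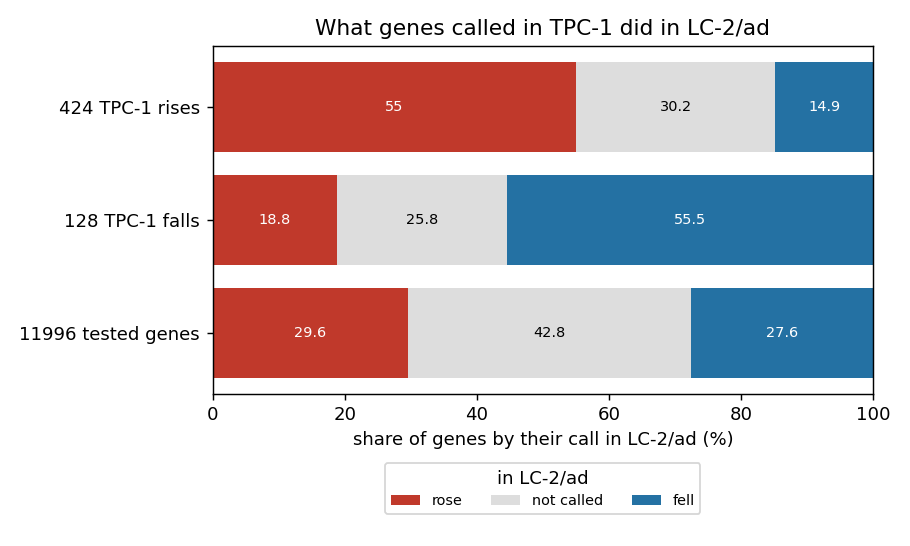
Share of genes (x axis, in %) that rose, were not called or fell in LC-2/ad, among the 424 genes that rose in TPC-1, the 128 that fell there and all 11996 compared genes. The same-direction share is 55% for TPC-1 rises and 55.5% for TPC-1 falls, against 29.6% and 27.6% of all compared genes.

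Both classes rest on calls in TPC-1 and therefore on single TPC-1 libraries. All 87 opposite changes (0.725% of compared genes) had treated libraries on 1 side of the parent libraries in each line. Since the class already required a call in each line, this carries no weight as support, and the share over all compared genes is not given here. Without TPC-1 parent library 2 or 3 the opposite changes numbered 39 and 34 and the shared changes, 304 in all (2.53%), numbered 158 and 144. Without TPC-1 treated library 1 or 2 there were 43 opposite changes each time, and 165 and 169 shared changes. The count of TPC-1 calls fell in the same 4 fits to 277, 249, 291 and 289. The 4393 called differences moved less, to between 3895 and 4273 when any 1 of the 12 libraries was left out.

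Opposite changes that rose in LC-2/ad and fell in TPC-1 numbered 24 (0.2% of compared genes), with a median change of 0.42 in LC-2/ad cells and -0.43 in TPC-1. Their number was 38 with mitochondrial genes removed and 35 with median-of-ratios scaling, while the reverse pattern went from 63 to 49 and 47, so the balance of the directions depends on scaling. The leading named gene was MLPH, which encodes melanophilin, a linker between RAB27A-bearing organelles and myosin. MLPH (ENSG00000115648, GRCh38 chr2:237485428-237555318) was at 58.4, 56.6 and 62.4 TPM before and at 129, 129 and 132 TPM after treatment of LC-2/ad. In TPC-1 the values were 25.9, 23.6 and 26.4 TPM before and 12.1, 13.6 and 12.5 TPM after treatment. The groups did not overlap, which was a condition for naming leading genes, and the lines lay farther apart after treatment. MLPH rose by 1.12 ± 0.05 (SE) in LC-2/ad, fell by 0.94 ± 0.09 in TPC-1 and had a difference of response of -2.06 ± 0.09 (adjusted p = 1.22e-08).

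DHRS3, a short-chain dehydrogenase that reduces retinal to retinol and is itself a retinoic acid target, had the largest difference of the leading genes in this direction. DHRS3 (ENSG00000162496, chr1:12567910-12617731) went from 112, 113 and 111 TPM to 173, 183 and 166 TPM in LC-2/ad. In TPC-1 it went from 8.67, 8.22 and 7 TPM to 1.76, 1.73 and 1.39 TPM. Every treated TPC-1 library was thus far below every parent library, and the difference of response was -2.40 ± 0.12 (adjusted p = 2.98e-08). Of the other 7 tested retinoid genes none was an opposite change, a class that holds only 0.725% of all compared genes. TGM2, a transglutaminase induced by retinoic acid, fell by 0.59 in LC-2/ad cells and by 1.14 in TPC-1. IGF2BP3, an RNA-binding protein of fetal tissue and tumours, went from 28.9, 24.6 and 23.2 TPM to 45.9, 46.7 and 43.7 TPM in LC-2/ad and from 115, 125 and 121 TPM to 81.8, 76.3 and 68.9 TPM in TPC-1. The lines thereby drew closer for this gene, with a difference of response of -1.48 ± 0.11 (adjusted p = 8.72e-07).

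CITED4, a CBP/p300-binding coactivator, rose by 0.99 in LC-2/ad and fell by 0.56 in TPC-1, a difference of -1.55 ± 0.15. NIBAN1, a stress-induced regulator of translation, rose by 0.61 and fell by 0.39, from 89.9, 90.4 and 92.9 TPM to 73.5, 61.8 and 73.4 TPM in TPC-1. HMOX1, the heme oxygenase that NRF2 induces, rose by 0.43 in LC-2/ad and fell by 0.33 in TPC-1. The remaining leading genes were BTD (biotinidase), MEGF9, MOB3A and DENND2B, with differences of -0.85, -0.83, -0.98 and -1.17. CAV1, the scaffold protein of caveolae and chosen after its values were seen, rose by 0.70 in LC-2/ad and fell by 0.29 in TPC-1. CAV1 left the class without the variance trend of the fit. MLPH, IGF2BP3 and DHRS3 kept their class in each alternative fit in which they were tested. CITED4, DENND2B, BTD, NIBAN1, MEGF9 and HMOX1 left it in some of the fits without TPC-1 parent library 1, 2 or 3 or TPC-1 treated library 1, 2 or 3. MOB3A left it without LC-2/ad parent library 1 or 3 or LC-2/ad treated library 1 or 2.

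**Figure D3:**
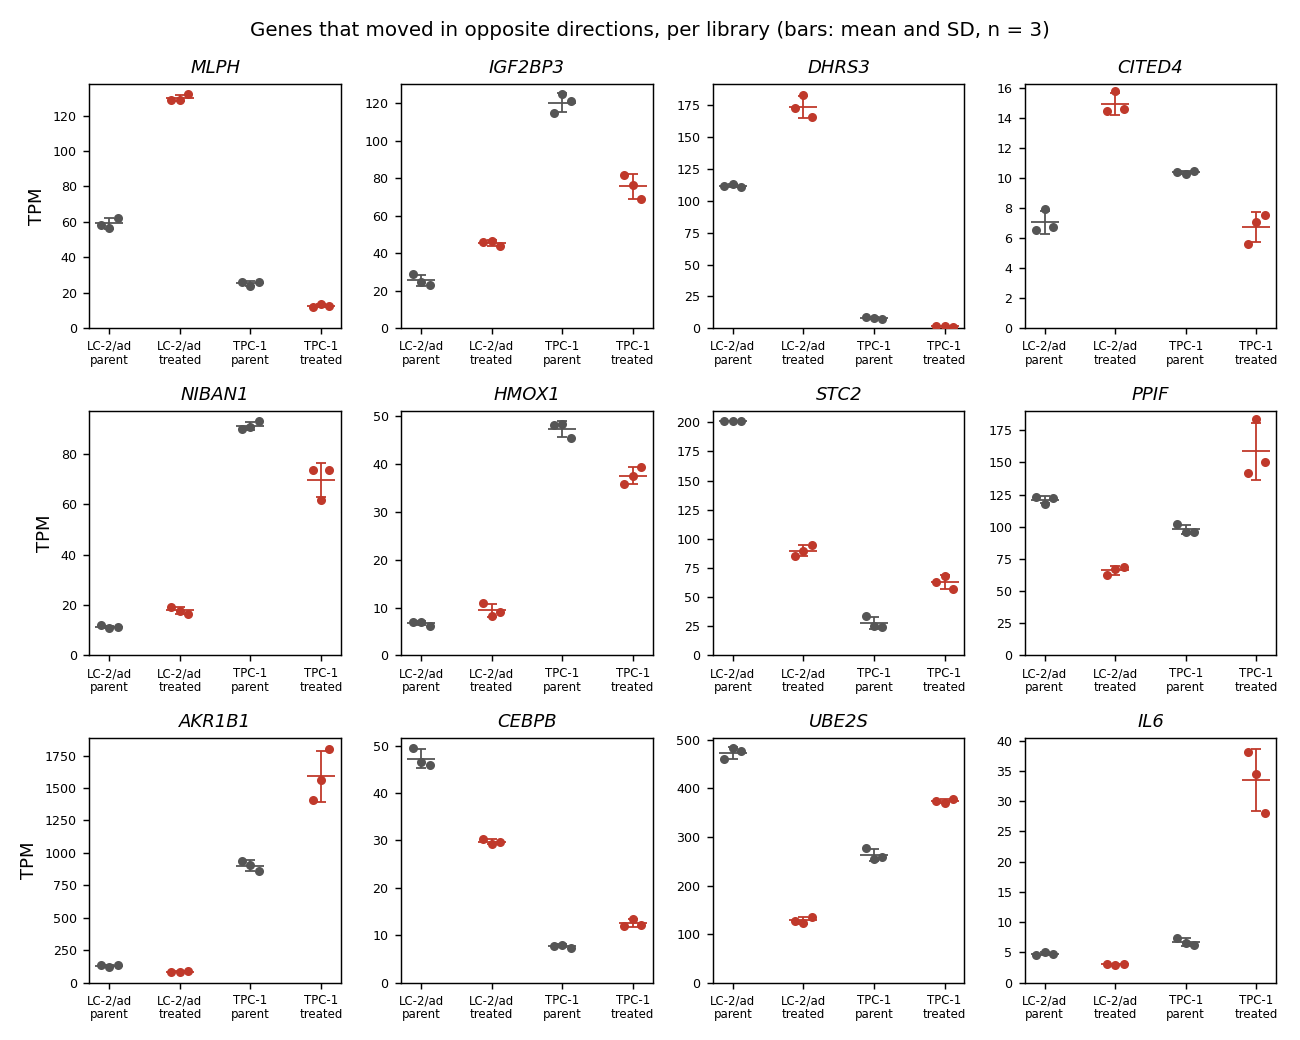
TPM (y axis, from 0, with its own scale per gene) of 12 genes in the 12 libraries, with points for libraries and bars for the group mean and SD (n = 3). MLPH, IGF2BP3, DHRS3, CITED4, NIBAN1 and HMOX1 are higher after treatment in LC-2/ad and lower in TPC-1, and STC2, PPIF, AKR1B1, CEBPB, UBE2S and IL6 show the reverse.

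In the other direction, 63 genes (0.525%) fell in LC-2/ad and rose in TPC-1, with a median change of -0.44 in LC-2/ad cells and 0.42 in TPC-1. STC2, a secreted glycoprotein induced by ATF4 and by endoplasmic reticulum stress, was the leading gene. STC2 (ENSG00000113739, chr5:173314713-173329503) was at 201 TPM in each LC-2/ad parent library and at 85.4, 89.6 and 94.9 TPM after treatment. In TPC-1 it rose from 34.1, 25.3 and 24.7 TPM to 63.4, 68.6 and 57.2 TPM. The change was of about equal size in each line, -1.15 ± 0.05 in LC-2/ad cells and 1.15 ± 0.12 in TPC-1, and the difference of response was 2.31 ± 0.15 (adjusted p = 1.70e-07).

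STC2 was 1 of 21 tested genes of the ATF4 and amino acid response list, which holds targets of the stress factor ATF4 and amino acid transporters. In this list the difference was higher in TPC-1 for 11 genes and lower for 1, and the median difference was 0.46 (0.04 over all compared genes). In LC-2/ad 13 members fell and 2 rose, and in TPC-1 5 rose and 1 fell. Over all compared genes 22.2% had a higher and 14.4% a lower difference, 27.6% fell and 29.6% rose in LC-2/ad, and 3.53% rose and 1.07% fell in TPC-1. The 4 opposite changes were STC2, CEBPB, SLC7A5 and SLC3A2, the last 2 being the light and heavy chains of the LAT1 amino acid transporter. SLC7A5 went from 113, 109 and 108 TPM to 56.6, 57 and 58.8 TPM in LC-2/ad and from 810, 793 and 854 TPM to 1090, 1010 and 990 TPM in TPC-1. SLC3A2, like TRIB3 chosen after its values were seen, fell by 0.40 and rose by 0.36. SLC7A5 and SLC3A2 left the class without the variance trend of the fit. ATF4 itself did not pass the test in either line (0.04 in LC-2/ad cells and 0.10 in TPC-1), and TRIB3, an ATF4-induced pseudokinase, fell in each line, by 0.86 in LC-2/ad cells and 0.52 in TPC-1, though not without TPC-1 parent library 2 or 3. The other tested members of the list were not opposite changes.

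CEBPB, a bZIP factor of stress and inflammation, went from 49.5, 46.5 and 45.8 TPM to 30.2, 29.2 and 29.7 TPM in LC-2/ad and from 7.82, 8.01 and 7.38 TPM to 12, 13.5 and 12.1 TPM in TPC-1. Its difference of response was 1.28 ± 0.10 (adjusted p = 7.12e-07), and it left the class without TPC-1 parent library 3. PPIF, cyclophilin D of the mitochondrial matrix, fell by 0.87 in LC-2/ad and rose from 102, 95.7 and 96.1 TPM to 142, 184 and 150 TPM in TPC-1, a difference of 1.55 ± 0.11. AKR1B1, aldose reductase, was much more abundant in TPC-1, where it rose from 940, 909 and 858 TPM to 1410, 1560 and 1800 TPM. In LC-2/ad AKR1B1 fell from 136, 121 and 135 TPM to 85.8, 80.5 and 89.6 TPM, so the gap between the lines widened. NDUFAF8, an assembly factor of respiratory complex I, fell by 0.78 and rose by 0.54. CHORDC1, an HSP90 co-chaperone, fell by 0.65 and rose by 0.63, and NCEH1, a cholesteryl ester hydrolase, fell by 0.51 and rose by 0.57. Both left the class without the filter on low values or without the variance trend of the fit. NCEH1 also left it without TPC-1 parent library 2 or 3 or treated library 1 or 2. TMEM171 fell by 1.05 in LC-2/ad, where its treated libraries were at 2.44, 4.74 and 2.37 TPM, and rose by 0.72 in TPC-1.

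UBE2S, the ubiquitin-conjugating enzyme that extends chains for the anaphase-promoting complex, combined a large fall with a small rise. UBE2S (ENSG00000108106, chr19:55399745-55407777) fell from 460, 484 and 476 TPM to 127, 122 and 136 TPM in LC-2/ad. In TPC-1 it rose from 277, 254 and 258 TPM to 375, 370 and 378 TPM. The difference was 2.38 ± 0.07 (adjusted p = 7.13e-10). No gene of the S phase and G2/M lists rose in TPC-1, where 3.53% of all compared genes did. APOBEC3B, a DNA cytidine deaminase, and SDC2, the proteoglycan syndecan-2, had the same shape and were chosen after their values were seen. APOBEC3B fell by 1.54 in LC-2/ad and rose by 0.40 in TPC-1, and SDC2 fell by 1.57 and rose by 0.66. APOBEC3B left the class without TPC-1 parent library 3. UBE2S, HSPB1, HMGA1, KRT8, KRT18, APOBEC3B, CXCL1 and the mitochondrial genes have near-identical copies or close relatives in the genome, so their values are uncertain to that extent.

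The cytokine IL6 had the largest rise in TPC-1 among the opposite changes. IL6 (ENSG00000136244, chr7:22725884-22732002) went from 7.36, 6.52 and 6.17 TPM to 38.1, 34.5 and 28 TPM in TPC-1. In LC-2/ad it went from 4.56, 5.12 and 4.73 TPM to 3.14, 2.99 and 3.08 TPM. From similar parent levels the lines thus came to lie far apart, with a difference of 2.67 ± 0.16 (adjusted p = 1.13e-07). LIF, a cytokine of the IL6 family, fell from 38.7, 29.4 and 35.4 TPM to 24.5, 20.1 and 22.4 TPM in LC-2/ad and rose from 33.6, 19.3 and 21.1 TPM to 43.7, 43.1 and 38.6 TPM in TPC-1, with a difference of 1.38 ± 0.24. LIF left the class when any TPC-1 library other than parent library 1 was left out.

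IL6 and LIF were exceptions within the list of cytokines and NF-kB targets, most of which rose together. NF-kB factors are held in the cytoplasm by inhibitors such as NFKBIA and, once released, induce cytokines, chemokines, adhesion molecules and their own inhibitors. Of 21 tested members, 15 rose and 2 fell in LC-2/ad and 17 rose and none fell in TPC-1, and 11 were shared rises, whereas 29.6% of all compared genes rose in LC-2/ad, 3.53% rose in TPC-1 and 1.94% were shared rises. The median change was 0.63 in LC-2/ad cells and 1.14 in TPC-1, beside 0.03 and 0.05 over all compared genes, and the difference was higher in TPC-1 for 14 members and lower for 1. Over all compared genes, 22.2% had a higher and 14.4% a lower difference.

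Among its regulators, NFKBIA went from 177, 182 and 185 TPM to 302, 311 and 328 TPM in LC-2/ad and from 29.9, 24.7 and 27.6 TPM to 80.5, 91.4 and 70.1 TPM in TPC-1, a difference of 0.73 ± 0.12. The subunits RELB and NFKB2 rose in each line, RELB by 0.39 and 1.33 and NFKB2 by 0.64 and 1.11 in LC-2/ad and TPC-1. NFKB1 rose by 0.61 in TPC-1 and had a change of 0.05 in LC-2/ad. TRAF1, an adaptor of TNF receptors, went from 1.35, 1.04 and 1.33 TPM to 9.12, 8.55 and 7.76 TPM in TPC-1 and from 1.95, 2.01 and 1.88 TPM to 3.31, 2.98 and 3.32 TPM in LC-2/ad. BIRC3, an inhibitor of apoptosis, rose by 0.72 in LC-2/ad cells and 1.47 in TPC-1. Of the effectors, ICAM1, an adhesion molecule, rose from 94, 93.8 and 95.1 TPM to 168, 155 and 142 TPM in LC-2/ad and from 3.22, 3.11 and 2.87 TPM to 10.2, 9.46 and 10.2 TPM in TPC-1. The complement component C3 rose by 0.64 and 1.34, and the neutrophil chemokine CXCL1 by 0.63 and 1.14. CCL2, the monocyte chemokine, changed in TPC-1 alone, from 14.4, 13.1 and 12.5 TPM to 65.9, 55.5 and 65.5 TPM, with LC-2/ad between 19.6 and 26.4 TPM in every library. CXCL8 and CSF2 likewise rose in TPC-1 (by 1.08 and 0.99) and had changes of -0.18 each in LC-2/ad. CCL20 was the member with the lower difference, since it rose by 1.19 in LC-2/ad and had a change of 0.05 in TPC-1. NFKBIA, RELB, NFKB1, NFKB2, BIRC3, ICAM1, C3, CXCL1, CXCL8, CSF2 and CCL20 were named after their values were seen. CXCL1 left the shared class without TPC-1 treated library 1 or 2, and CXCL8 joined the opposite changes without LC-2/ad parent library 1.

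Upstream sequences were examined because these NF-kB targets moved together. The 250 bases before 1 RefSeq start site per gene symbol (GRCh38.p14) were searched on both strands for the letters GGANTTTCC, the core of an NF-kB site. Start sites of 1 chromosome and entries of incomplete length were left out, so the shares below hold for the promoters searched. The letters stood in 401 of 27305 promoters (1.47%) and in 139 of the 9183 promoters of compared genes (1.51%). Among shared rises 11 of 172 promoters (6.4%) held them, among shared falls 2 of 53, among genes that fell in LC-2/ad and rose in TPC-1 1 of 53, which is IL6, and among genes of the reverse pattern 0 of 17. The 2 shared falls were DUSP6 and PHLDA1. In the list of cytokines and NF-kB targets, the letters also stood before CXCL2, CXCL8, NFKB1 and TNFAIP3, which were in neither class. Of the 11 shared rises of that list, the letters were found only before the 4 printed below. They did not stand before BIRC3 and TRAF1. No match was found for C3, CSF1, NFKB2, RELB and TNFAIP2, whose promoters may not all have been searched. A match is a description of letters and not evidence of binding. The sites of IL6, as the opposite change, and of 4 shared rises are shown with 30 bases on each side, 5′ to 3′ on the gene's strand, with the letters of 1 match each in capitals:
IL6 (chr7:22727098-22727166, plus strand): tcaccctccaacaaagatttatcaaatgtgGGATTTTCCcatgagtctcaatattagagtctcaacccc
NFKBIA (chr14:35404792-35404860, minus strand): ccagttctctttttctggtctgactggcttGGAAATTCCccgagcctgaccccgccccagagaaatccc
ICAM1 (chr19:10270904-10270972, plus strand): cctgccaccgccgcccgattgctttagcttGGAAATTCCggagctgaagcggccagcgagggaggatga
CXCL1 (chr4:73869285-73869353, plus strand): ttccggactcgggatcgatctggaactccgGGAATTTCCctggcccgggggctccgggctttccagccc
IL32 (chr16:3065305-3065373, plus strand): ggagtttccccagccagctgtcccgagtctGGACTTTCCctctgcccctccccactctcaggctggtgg

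The sites of NFKBIA and ICAM1 match on the opposite strand, and that of ICAM1 overlaps a match to CCGGAA, the core of an ETS site. The capitals begin 72 bases before the start site in IL6, 81 in NFKBIA, 186 in ICAM1, 78 in CXCL1 and 68 in IL32. A further match begins 98 bases before the start site in IL32, where it is the first 9 printed bases, and another 242 bases before it in NFKBIA, outside the printed stretch. CCGGAA, searched in the same way, stood in 14.8% of the promoters searched and in 27.2% of those of compared genes. It stood in 25 of 172 shared rises (14.5%) and in 12 of 53 shared falls (22.6%). TGACGTCA, the CRE core, stood in 3.05% of promoters of compared genes, in 9 of 172 shared rises (5.23%) and in 4 of 53 genes that fell in LC-2/ad and rose in TPC-1 (7.55%), UBE2S among them. TGANTCA, the AP-1 core, stood in 3.47% of promoters of compared genes in 4 of 53 shared falls (7.55%), in 4 of 172 shared rises (2.33%) and in 3 of 53 genes that fell in LC-2/ad and rose in TPC-1 (5.66%). GGAATG, the TEAD core, stood in 9.47%, in 24 of 172 shared rises (14%), in 2 of 53 shared falls (3.77%) and in 7 of 53 genes that fell in LC-2/ad and rose in TPC-1 (13.2%). GAAANNGAA, the ISRE core, stood in 5.28% and in 13 of 172 shared rises (7.56%), and GCGTG, the AHR core, in 46.9% and in 63 of 172 shared rises (36.6%).

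The 233 shared rises (1.94%) had median changes of 0.63 in LC-2/ad cells and 0.53 in TPC-1. The difference of response was called for 85 of them (36.5%), about the share over all compared genes (36.6%). Of these, 54 were larger rises in LC-2/ad cells and 31 in TPC-1. IGFBP5, a secreted binding protein of insulin-like growth factors, was the leading gene. IGFBP5 (ENSG00000115461, chr2:216672105-216695525) went from 8.37, 7.62 and 7.77 TPM to 59.8, 60.1 and 57.1 TPM in LC-2/ad and from 2.33, 2 and 2.22 TPM to 8.79, 6.51 and 9.86 TPM in TPC-1. The rise was larger in LC-2/ad, with a difference of -1.20 ± 0.17 (adjusted p = 0.000119). IL32, a cytokine whose promoter site is printed above, rose from 31.3, 39.2 and 37.3 TPM to 107, 100 and 100 TPM in LC-2/ad and from 278, 317 and 301 TPM to 765, 709 and 707 TPM in TPC-1. The changes of IL32 were 1.49 ± 0.08 and 1.28 ± 0.06, and the difference of -0.21 (95% interval -0.44 to 0.02) did not pass the test.

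EDN1, the vasoactive peptide endothelin-1, rose from 7.05, 6.88 and 7.14 TPM to 18.1, 18.8 and 16.9 TPM in LC-2/ad and from 1.15, 1.35 and 1.08 TPM to 6.32, 5.99 and 4.51 TPM in TPC-1. Its relative EDN2 rose far more in TPC-1, from 12.3, 9.98 and 9.88 TPM to 97.3, 76.6 and 97.5 TPM, than in LC-2/ad, where it went from 1.04, 0.761 and 1.68 TPM to 2.74, 3.38 and 4.52 TPM. The EDN2 difference was 1.88 ± 0.25 (adjusted p = 7.70e-05), whereas that of EDN1 was 0.34 (95% interval -0.02 to 0.70). FILIP1L, a regulator of cell migration, rose by 1.38 and 1.22 in LC-2/ad and TPC-1. PDGFB, a growth factor of the platelet-derived family, rose from 6.75, 8.99 and 7.97 TPM to 18, 18.7 and 19.9 TPM in LC-2/ad and from 15.3, 16.1 and 14.3 TPM to 30.7, 30.4 and 28.6 TPM in TPC-1. That treated and parent libraries did not overlap in either line was a condition for naming the leading genes, and carries no weight as support.

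Other leading shared rises were the activin antagonist FSTL3 (1.22 and 0.92 in LC-2/ad and TPC-1), the ephrin ligand EFNA1 (1.15 and 0.88) and TMEM265 (0.97 and 1.24). EFNA1 left the class without the filter on low values. Of the 25 tested YAP/TAZ targets, genes of the Hippo pathway's transcriptional arm, 16 rose and 5 fell in LC-2/ad and 6 rose and 1 fell in TPC-1. Over all compared genes 29.6% rose and 27.6% fell in LC-2/ad, and 3.53% rose and 1.07% fell in TPC-1. All 6 TPC-1 rises were shared, among them CCN1 (0.63 and 0.77) and AMOTL2 (0.96 and 0.79), and the shared fall was NT5E. IGFBP3 was also a shared rise of this list, but by only 0.10 in LC-2/ad against 1.11 in TPC-1, and it left the class without LC-2/ad parent library 2 or 3 or LC-2/ad treated library 1 or 2. Of 11 tested antigen presentation genes 7 rose and 1 fell in LC-2/ad, and 4 rose in TPC-1, all of them shared, to be read against the same shares. These were B2M (0.52 and 0.36), CD74 (0.98 and 0.80), CTSS and TAPBP, the last in the MHC region and uncertain for that reason. B2M left the class without TPC-1 parent library 2 or 3, CTSS without any 1 of the 6 TPC-1 libraries and TAPBP without any of them other than parent library 1. CCN1, AMOTL2, B2M, CD74, CTSS and TAPBP were chosen after their values were seen.

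**Figure D4:**
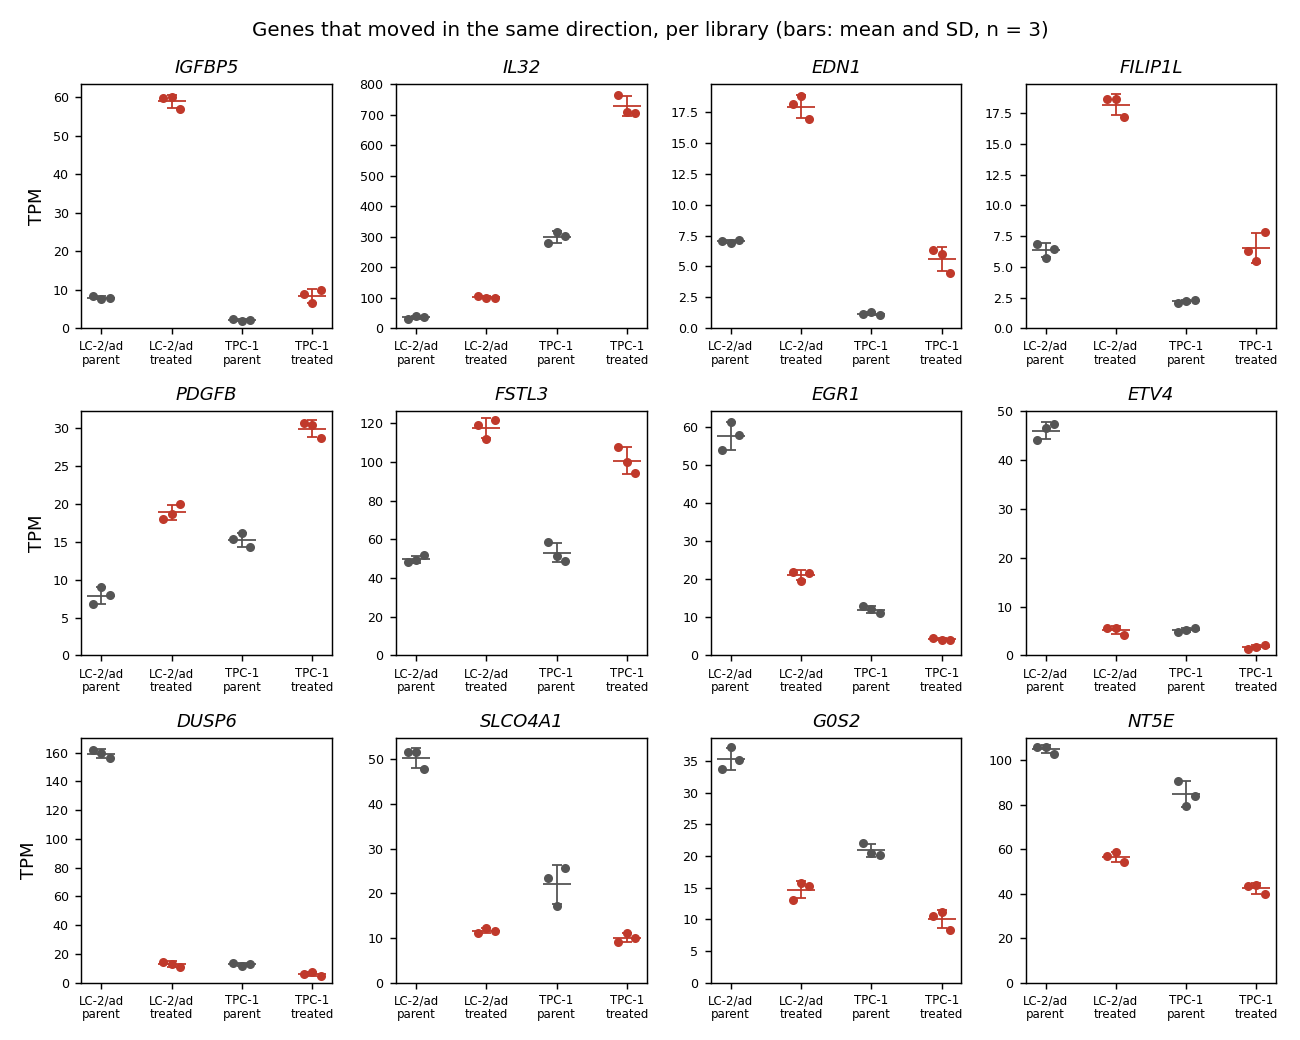
TPM (y axis, from 0, with its own scale per gene) of 12 genes in the 12 libraries, with points for libraries and bars for the group mean and SD (n = 3). IGFBP5, IL32, EDN1, FILIP1L, PDGFB and FSTL3 are higher after treatment in each line, and EGR1, ETV4, DUSP6, SLCO4A1, G0S2 and NT5E lower.

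The 71 shared falls (0.592%) had median changes of -0.73 in LC-2/ad cells and -0.49 in TPC-1. The difference was called for 37 (52.1%, beside 36.6% of all compared genes), with 32 larger falls in LC-2/ad cells and 5 in TPC-1. They included ERK feedback and immediate early genes, of which 17 were tested. In this list 16 fell and 1 rose in LC-2/ad, 9 fell and none rose in TPC-1, and all 9 were shared. Of all compared genes 27.6% fell in LC-2/ad cells and 1.07% in TPC-1. The median change was -1.41 in LC-2/ad cells and -0.68 in TPC-1, beside 0.03 and 0.05 over all compared genes. The difference was called for 11 members, all of them positive, where 22.2% of all compared genes had a higher and 14.4% a lower difference.

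DUSP6, the ERK-specific phosphatase, had the largest shared fall in LC-2/ad, but left the shared class without the filter on low values. DUSP6 (ENSG00000139318, chr12:89347232-89353271) went from 162, 160 and 156 TPM to 14.6, 13.2 and 10.9 TPM in LC-2/ad and from 13.6, 11.3 and 13 TPM to 5.69, 7.42 and 4.62 TPM in TPC-1. Parent TPC-1 cells thus held about as much DUSP6 as treated LC-2/ad cells, and the difference was 2.54 ± 0.19 (adjusted p = 6.60e-07). ETV4 went from 44, 46.5 and 47.4 TPM to 5.68, 5.58 and 4.2 TPM in LC-2/ad and from 4.8, 5.18 and 5.54 TPM to 1.41, 1.7 and 2.06 TPM in TPC-1, with a difference of 1.75 ± 0.17. ETV1 fell by 1.73 and 1.06 in LC-2/ad and TPC-1. ETV5 fell by 2.55 in LC-2/ad and had a change of -0.68 in TPC-1 that did not pass the test (adjusted p = 0.087).

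EGR1, an immediate early zinc finger factor, fell by closely similar amounts. EGR1 went from 54, 61.3 and 58 TPM to 21.9, 19.6 and 21.7 TPM in LC-2/ad and from 12.9, 12.1 and 11.1 TPM to 4.55, 4.16 and 4.08 TPM in TPC-1. The difference was 0.11, with a 95% interval of -0.14 to 0.36. Among the feedback inhibitors, DUSP5 fell by 1.62 and 0.68 in LC-2/ad and TPC-1, SPRY4 by 1.47 and 1.08, SPRY2 by 0.42 and 0.54 and SPRED1 by 0.82 and 0.70. SPRY4 was at 1, 0.818 and 0.289 TPM in treated TPC-1 libraries, and its difference of 0.40 did not pass the test (adjusted p = 0.206). PHLDA1, an ERK-induced gene, fell by 1.62 and 0.95. Other targets downstream of ERK were called in LC-2/ad alone, although CCND1, with a change of -0.35 in TPC-1, left that state without TPC-1 treated library 2 and with the within-line contrasts of the 12-library fit. FOSL1 had a difference of 1.09 ± 0.12, CCND1, which encodes cyclin D1, of 0.78 ± 0.14, and MYC of 0.59 ± 0.12. SPHK1, a lipid kinase induced by growth factors, fell by 1.43 in LC-2/ad and had a change of 0.25 in TPC-1. DUSP5 and SPRY2 left the shared class without any 1 of the 6 TPC-1 libraries, SPRY4 without each of them except treated library 1, and ETV1 and SPRED1 without TPC-1 parent library 3 or treated library 1 or 2.

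Shared falls outside the ERK list included SLCO4A1, an organic anion transporter (-2.03 and -1.05 in LC-2/ad and TPC-1), G0S2, an inhibitor of the lipase ATGL (-1.21 and -1.0), and HAS3, a hyaluronan synthase (-1.02 and -0.74). NT5E, the ectonucleotidase CD73, went from 106, 106 and 103 TPM to 56.8, 58.6 and 54.2 TPM in LC-2/ad and from 90.8, 79.3 and 84.1 TPM to 43.7, 44.1 and 39.7 TPM in TPC-1. Its difference of -0.10 had a 95% interval of -0.28 to 0.09. SCEL, sciellin of the cornified envelope, fell by 0.73 and 0.75, and left the class without TPC-1 parent library 2 or 3 or treated library 2. Further genes were chosen after their values were seen. HES1, a Notch effector, fell by 1.31 and 1.13, and HMGA1, an architectural chromatin protein, fell from 1490, 1510 and 1460 TPM to 509, 517 and 517 TPM in LC-2/ad and from 642, 682 and 642 TPM to 470, 429 and 452 TPM in TPC-1. EMP1, an epithelial membrane protein, was among the 5 with the larger fall in TPC-1, from 41.8, 32.8 and 38.4 TPM to 11.4, 11.7 and 10.6 TPM (-1.65 ± 0.10), against -0.54 ± 0.05 in LC-2/ad.

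Most of the largest differences outside these classes came from genes called in LC-2/ad alone, while CCL2, described above, was called in TPC-1 alone. Among those of LC-2/ad were 2 EGFR ligands, AREG and EREG, and cell cycle genes. AREG, which encodes amphiregulin, fell from 121, 126 and 125 TPM to 22.8, 22.7 and 23.7 TPM in LC-2/ad, while TPC-1 stayed between 8.36 and 11.4 TPM, a difference of 2.61 ± 0.11 (adjusted p = 1.14e-08). EREG, which encodes epiregulin, fell by 2.48 in LC-2/ad and had a change of 0.10 in TPC-1, where parent libraries were at 110, 82.9 and 101 TPM. The EGFR ligand TGFA had a difference of the other sign, between -0.77 and -0.48 over the fits. Of 12 tested growth factor ligands, 4 had a higher and 3 a lower difference, beside 22.2% and 14.4% of all compared genes. Every one of 28 tested S phase genes and 27 tested G2/M genes fell in LC-2/ad and had a called, higher difference. None of them passed the test in TPC-1. Over all compared genes 27.6% fell in LC-2/ad, 22.2% had a higher difference and only 4.6% were called in TPC-1. The median difference of the S phase and G2/M lists was 1.44 and 1.70, beside 0.04 over all compared genes. Their median change in TPC-1 was -0.04 for each list. PLK1, a mitotic kinase, went from 77.6, 72.7 and 72.9 TPM to 16.1, 17.5 and 16.1 TPM in LC-2/ad and from 124, 113 and 121 TPM to 127, 122 and 111 TPM in TPC-1, where the groups overlapped. RRM2, a subunit of ribonucleotide reductase, fell from 267, 247 and 259 TPM to 57.4, 60.6 and 67.8 TPM in LC-2/ad and was at 254 to 284 TPM in all TPC-1 libraries. The TPC-1 changes of PLK1 and RRM2 had 95% intervals of -0.14 to 0.16 and -0.16 to 0.08.

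Biosynthetic lists shifted in the same sense, as 20 of 24 ribosome biogenesis genes, 14 of 23 cholesterol synthesis genes, 9 of 12 fatty acid synthesis genes, 14 of 19 glycolysis genes and 10 of 11 chaperones had a higher difference in TPC-1, beside 22.2% of all compared genes. The last count included HSPB1, an opposite change of small size (-0.14 in LC-2/ad cells and 0.34 in TPC-1) that left its class with mitochondrial genes removed or without the variance trend. INSIG1, the sterol-regulated retention protein of SREBP, fell by 1.26 in LC-2/ad and had a change of 0.06 in TPC-1. LDHA, lactate dehydrogenase, fell by 1.41 in LC-2/ad cells and by 0.30 in TPC-1, and left the shared class without any 1 of 5 TPC-1 libraries, treated library 3 being the exception. Among receptors, MET fell by 1.22 in LC-2/ad and had a change of -0.30 in TPC-1, a difference of 0.91 ± 0.11, while ERBB2 rose by 0.89 and had a change of 0.08, a difference of -0.81 ± 0.07. RET itself rose from 15.7, 15.9 and 16.5 TPM to 22.2, 21 and 21.1 TPM in LC-2/ad and was at 6.78 to 7.28 TPM in all TPC-1 libraries, a difference of -0.43 ± 0.10 (adjusted p = 0.00467).

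Differences in the other direction, with the higher change in LC-2/ad, were led by TUBA1A, an alpha-tubulin of a family with near-identical copies, which is uncertain for that reason. TUBA1A went from 8.1, 8.48 and 7.49 TPM to 46.8, 47.5 and 42.7 TPM in LC-2/ad and was between 183 and 255 TPM in all TPC-1 libraries, a difference of -2.34 ± 0.14 (adjusted p = 1.16e-07). MXD4, which competes with MYC for its partner MAX, rose by 2.04 in LC-2/ad and had a change of 0.17 in TPC-1. The autophagy regulator TP53INP2 rose by 2.15 in LC-2/ad against a change of 0.14, and the chloride channel family member CLIC3 by 2.46 against 0.26. LBH, AHNAK2, ALDH3B1, FRAS1 and DENND3 had differences between -2.21 and -1.81.

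Of 33 tested interferon-stimulated genes, 24 had a lower and 3 a higher difference in TPC-1, 28 rose in LC-2/ad and 3 rose in TPC-1, with a median difference of -0.77. Over all compared genes 14.4% had a lower and 22.2% a higher difference, 29.6% rose in LC-2/ad and 3.53% rose in TPC-1, which is also the background of the next lists. IFI27 rose from 28.9, 31.6 and 28.1 TPM to 86.7, 122 and 98.8 TPM in LC-2/ad, while TPC-1 libraries lay between 0.513 and 2.98 TPM. The 3 that rose in TPC-1 included the shared rises IRF1 and GBP1, though IRF1 not without TPC-1 parent library 2 or 3 or treated library 2 or 3, and GBP1 not without parent library 2 or treated library 1 or 3. Both genes were named after their values were seen. FOXO and PI3K-restrained genes had 15 lower and no higher differences among 20, with PIK3IP1, an inhibitor of PI3K, rising by 2.12 in LC-2/ad and at 0.35 in TPC-1. TGF-beta and mesenchymal genes had 13 lower and 2 higher differences among 21. In this list the 4 shared rises included COL4A1, SPARC and THBS1. The shared fall was TNC, the matrix protein tenascin-C, though not without TPC-1 treated library 1. COL4A1, THBS1 and TNC were named after their values were seen. VIM rose by 0.99 in LC-2/ad from only 3.45, 3.91 and 3.62 TPM, and was between 3840 and 4250 TPM in TPC-1. All 13 mitochondrial DNA transcripts had a lower difference, with a median of -0.73, and none passed the test in TPC-1. BMF, a BH3-only death gene, was a shared rise, by 1.71 in LC-2/ad cells and 0.68 in TPC-1 (difference -1.03 ± 0.15), and left the class without TPC-1 parent library 2 or 3 or treated library 2 or 3.

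**Figure D5:**
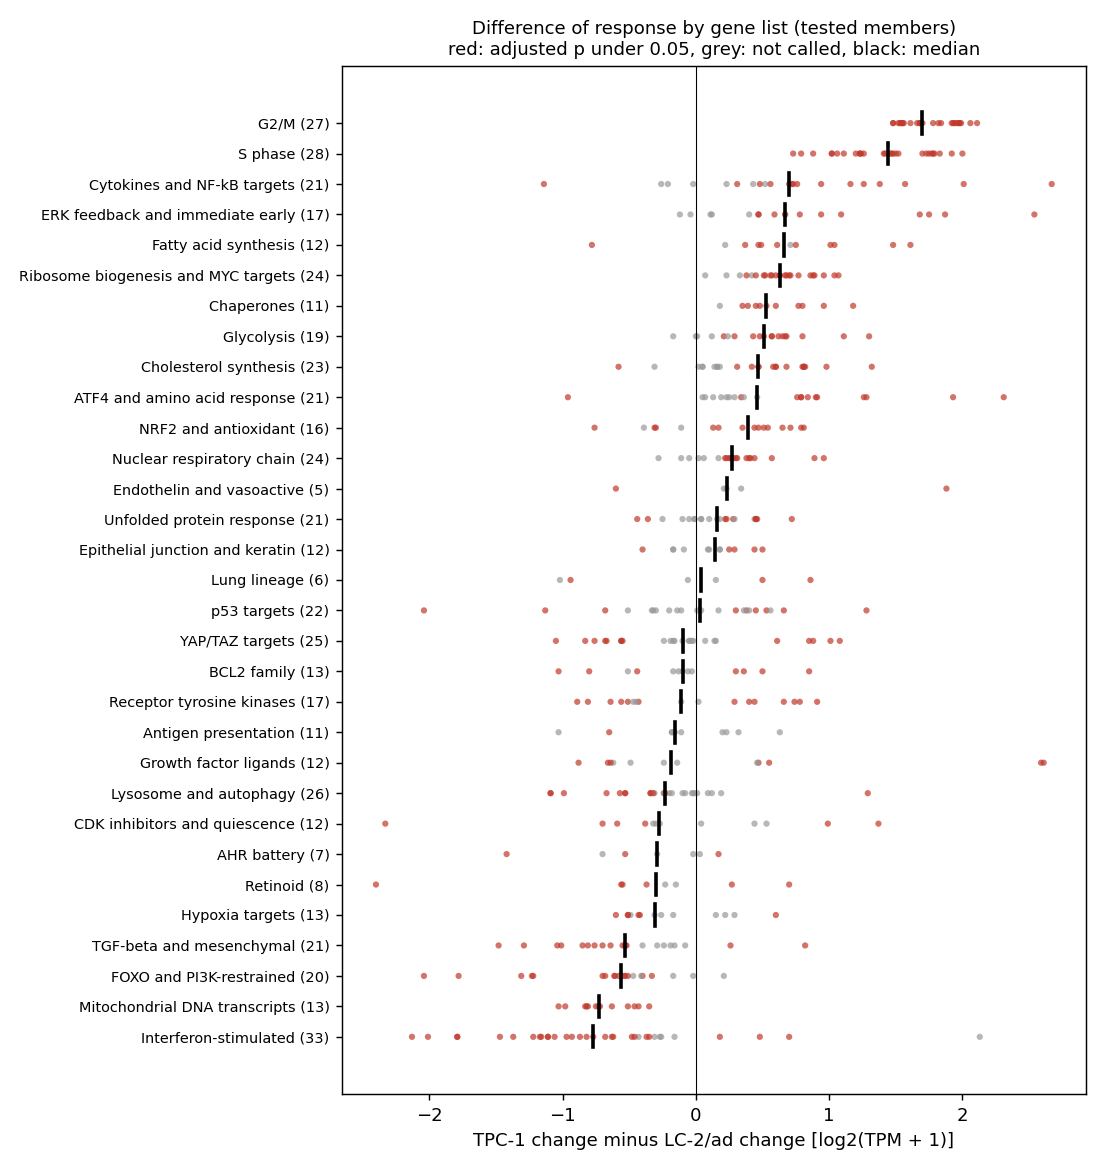
Difference of response (x axis, change in TPC-1 minus change in LC-2/ad on the log2(TPM + 1) scale) for the tested members of each list with at least 5 of them, ordered by the median (black bars). The number tested is in brackets, and red points passed the test. Median differences run from -0.77 for interferon-stimulated genes to 1.70 for G2/M genes.

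The remaining lists are given by their counts of called differences, beside 22.2% higher and 14.4% lower over all compared genes. Unfolded protein response genes had 7 higher and 2 lower differences among 21, p53 targets 6 and 3 among 22, NRF2 and antioxidant genes 11 and 3 among 16, and lysosome and autophagy genes 1 and 12 among 26. In the BCL2 family the counts were 4 and 3 among 13, in receptor tyrosine kinases 7 and 6 among 17 and in growth factor ligands 4 and 3 among 12. Hypoxia targets had 1 higher and 5 lower among 13, nuclear respiratory chain genes 16 and 0 among 24, and epithelial junction and keratin genes 4 and 1 among 12. The thyroid factor PAX8 rose by 0.53 in each line, from 14, 14.1 and 16.2 TPM to 19.5, 21.7 and 24.6 TPM in LC-2/ad and from 230, 154 and 186 TPM to 285, 273 and 256 TPM in TPC-1. Its difference was near 0, with a 95% interval of -0.38 to 0.37, and it left the shared class when any TPC-1 library other than parent library 1 was left out. CYP1A1 and NKX2-1 were not compared because they were below the limit in TPC-1.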

How the data were processed

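The authors deposited a TPM table for each line. Every column summed to the same total, so libraries were scaled one by one. Salmon, bcl2fastq 2.20.0 and the build GRCh38 are listed in the submitters' processing notes. The annotation and any filter are not given in the sources used here, and TPM keep no read depth, so precision is that of the spread between libraries. Tables were joined on Ensembl identifiers. Symbols and coordinates came from GENCODE 29 and a gene name table, promoters from RefSeq (GRCh38.p14).

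log2(TPM + 1) was fitted with limma 3.58.1 in R 4.3.3 (variance trend, two-sided, Benjamini-Hochberg adjustment over 11996 genes), on 12 libraries for the difference and on 6 for each line. The fit was tested on simulated data. Tables and figures used pandas 2.3.3, numpy 2.4.6 and matplotlib 3.10.9 in Python 3.11.15.

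Members, gene lists, tests, alternatives and the naming rule were chosen with earlier results of these data known. The rule named the 10 opposite and 10 shared changes per direction with the largest smaller change. Each of these had a mean of at least 5 TPM in a group of each line. Their treated and parent values did not overlap in either line. The rule also named the 10 largest other differences per direction, up to 4 members per list and 21 pathway genes. Not all of these further genes met those conditions, since PLK1 values overlapped in TPC-1 and IFI27 lay below 5 TPM there. Pseudogenes, genes without a symbol and MHC genes were counted but not named as leading genes. Genes with near-identical copies are uncertain, because how their reads were divided is not given. Some named genes are not reported here.

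Alternatives were a pseudocount of 0.1 or 5, no filter, a mean of at least 5 TPM, median-of-ratios scaling, a fit without the variance trend, rescaling after mitochondrial genes were dropped, a block for the replicate number, each library left out, a spread weight per line, protein-coding genes alone, within-line contrasts of the 12-library fit, and a change of at least 0.5.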

Additional observations from a re-analysis of the deposited data

Results flagged for a closer look

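The effect of treatment differed between the lines by a test of the difference itself for 4393 genes. Among the leading opposite changes the difference was -2.06 for MLPH, -1.48 for IGF2BP3, -2.40 for DHRS3, -1.55 for CITED4, -1.17 for DENND2B, -0.85 for BTD, -1.0 for NIBAN1, -0.83 for MEGF9, -0.98 for MOB3A and -0.76 for HMOX1. In the other direction it was 2.31 for STC2, 1.77 for TMEM171, 1.55 for PPIF, 1.28 for CEBPB, 1.28 for CHORDC1, 1.42 for AKR1B1, 1.38 for LIF, 1.32 for NDUFAF8, 1.08 for NCEH1 and 2.38 for UBE2S. That each of these 20 genes changed in each line with contrary signs was a condition of the class, and carries no weight as support. Other genes described above with a called difference passed the same test of the difference, without changing in contrary directions unless the text says so.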

How the results depend on the processing

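Of the leading 10 genes per class, 3 and 6 opposite changes (rising in LC-2/ad and TPC-1, in that order), 9 shared rises and 7 shared falls kept their class in all of the 23 other fits that tested them, apart from the size limit. Without the filter on low values there were 298 calls in TPC-1, 37 opposite and 145 shared changes, and without the variance trend 288, 36 and 169. With the within-line contrasts of the 12-library fit, which lends TPC-1 the spread of both lines, there were 1285, 216 and 650. A change of at least 0.5 left 2747 differences, 3091 calls in LC-2/ad, 284 in TPC-1, 18 opposite and 127 shared changes. Leaving out 1 library gave 3895 to 4273 differences, 6095 to 6862 calls in LC-2/ad, 249 to 755 in TPC-1, 34 to 115 opposite and 144 to 419 shared changes. The replicate numbers did not pair the samples (correlations of same-numbered deviations between -0.05 and 0.05), and the replicate block gave 4227 differences, 6578 and 491 calls in LC-2/ad and TPC-1, 72 opposite and 270 shared changes, with HMOX1 and DENND2B no longer among the opposite ones. Some differences that had not passed the test changed sign, not all of them near 0 (0.40 for SPRY4 in the main fit). With a pseudocount of 0.1 they were 0.01 for FILIP1L, -0.02 for EGR1, -0.22 for SPRY4 and -0.32 for HES1. With a pseudocount of 5 they were -0.16 for EDN1, -0.11 for HAS3, 0.28 for SCEL, which then passed the test, 0.08 for PAX8 and -0.00 for TAPBP. The differences of SPRY4, HES1, EGR1, EDN1 and FILIP1L also passed the limma test in at least 1 alternative fit. Their smallest adjusted p were 0.000316, 0.000194, 0.00522, 0.00903 and 0.0201, so whether they passed depended on the fit. Leaving out 1 library moved SCEL to between -0.11 and 0.07, PAX8 to between -0.15 and 0.14 and SPRED1 to between -0.03 and 0.28. The cause was not tested except where fewer samples or genes set it. TPM keep no depth, so what low counts limit cannot be given.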
